A study of Mus musculus with 6 samples.

Results

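The genes described here are 8 liver-enriched transcription factors, namely the forkhead genes Foxa1, Foxa2 and Foxa3, the C/EBP genes Cebpa and Cebpb, the cut homeobox genes Onecut1 and Onecut2, and the prospero homeobox gene Prox1. They were taken by symbol from a table of 51912 genes, in which each of the 8 had 1 entry. A gene was tested if 3 or more of the 6 samples had 1 TPM or more of it, which held for 13325 genes and for all 8 factors. TPM (transcripts per kilobase, scaled to a common total) is a gene's share of a sample's transcripts per unit of length, so levels can be set side by side between genes.

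Liver identity is held by a small group of transcription factors that bind each other's genes and many shared targets. FOXA proteins are pioneer factors, which bind their sites in closed chromatin and open it for other factors. C/EBP proteins are basic leucine zipper factors that drive metabolic and acute-phase genes, with C/EBPα linked to the quiescent hepatocyte and C/EBPβ to hormonal, inflammatory and regenerative responses. ONECUT1 (HNF6) and ONECUT2 act in hepatocyte and bile duct development, and PROX1 is needed for hepatoblast migration and, in the adult liver, represses bile acid and lipid genes through nuclear receptors.

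Livers came from C57/B6 mice at 21 days of age. TCS livers were from mice breastfed by mothers given triclosan, an antimicrobial of consumer products, in both pregnancy and lactation. Vehicle livers were from mice breastfed by mothers whose chow held the vehicle alone. Each group had 3 RNA samples. The methods place the triclosan in the mothers' chow. The labels name the milk, but the 120 ppm they give equals the chow dose of the methods. The level the paper measured in milk was far lower. In each sample 3 livers were pooled. The methods name male mice only, from more than a single litter per group. Which litters made up a pool is not given in the sources used here, so pools of a group may share litters. The p-values measure the spread between these pools.

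Sex-linked and cell type RNAs varied between the libraries. Xist, the RNA of the inactive X chromosome, was at 0.0144, 98.7 and 44.0 TPM in TCS samples 1 to 3 and at 46.4, 1.80 and 88.3 TPM in vehicle samples 1 to 3, so samples high and low in a female-specific RNA occurred in both groups. Pancreatic acinar markers summed to 10.7, 755 and 73.5 TPM in TCS samples and to 239, 100 and 721 TPM in vehicle samples. The hepatocyte markers were all detected, and Ttr, Apob, Serpina1c and Fgb overlapped between groups. The sum of the markers, most of it Alb, was 115865 to 118781 TPM in TCS samples and 132456 to 140575 TPM in vehicle samples. Of these 10 markers 0 passed the limma test at an adjusted p under 0.05, 5 were lower in TCS at an unadjusted p under 0.05 (3.50% of all genes tested), and 6 were lower in every TCS sample than in any vehicle sample (4.61% of all genes tested). Erythroid markers also separated, summing to 4225 to 4722 TPM in TCS samples and 4812 to 5238 TPM in vehicle samples, with 0 of 7 past the test and 2 lower without overlap, against the same 4.61%. Lymphatic endothelial (73.8 to 76.7 TPM in TCS, 75.0 to 83.0 in vehicle), cholangiocyte (79.3 to 82.0 in TCS, 65.2 to 91.4 in vehicle) and Kupffer and myeloid sums (368 to 462 in TCS, 363 to 426 in vehicle) overlapped. No marker in these 6 lists was listed at 0 in every sample. The part of these values in the results was not tested, and in whole liver a smaller share of a cell type and less RNA per cell cannot be told apart.

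Promoter windows of the RefSeq annotation (GRCm38.p6, 250 bases before to 50 after a start in that annotation) were read for 7 of the 8 genes, 10 windows in all. The 3 Foxa windows are shown because these related genes differed from each other in direction, and the Cebpb window because Cebpb had the largest negative fold change of the 8. Foxa1 is at chr12:57546062-57546361, Foxa2 (the first of 3 windows) at chr2:148046920-148047219 and Foxa3 at chr7:19023490-19023789, all on the minus strand, and Cebpb is at chr2:167688665-167688964 on the plus strand. Capitals mark matches, on either strand, to the FOXA motif TGTTTAC, the ONECUT motif ATTGATT, the core TGACG of the cAMP response element and the TATA box TATAAA.
Foxa1: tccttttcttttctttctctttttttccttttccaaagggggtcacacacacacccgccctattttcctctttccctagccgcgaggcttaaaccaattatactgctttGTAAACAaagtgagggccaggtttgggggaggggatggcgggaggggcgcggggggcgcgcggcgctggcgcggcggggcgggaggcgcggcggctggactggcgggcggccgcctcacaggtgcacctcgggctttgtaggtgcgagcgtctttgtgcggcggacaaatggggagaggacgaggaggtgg
Foxa2: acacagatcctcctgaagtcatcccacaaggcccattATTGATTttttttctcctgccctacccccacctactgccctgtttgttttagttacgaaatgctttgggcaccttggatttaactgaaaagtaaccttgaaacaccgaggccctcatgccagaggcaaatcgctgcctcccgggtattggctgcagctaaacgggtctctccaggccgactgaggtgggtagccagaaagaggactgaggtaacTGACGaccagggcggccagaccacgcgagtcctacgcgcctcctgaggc
Foxa3: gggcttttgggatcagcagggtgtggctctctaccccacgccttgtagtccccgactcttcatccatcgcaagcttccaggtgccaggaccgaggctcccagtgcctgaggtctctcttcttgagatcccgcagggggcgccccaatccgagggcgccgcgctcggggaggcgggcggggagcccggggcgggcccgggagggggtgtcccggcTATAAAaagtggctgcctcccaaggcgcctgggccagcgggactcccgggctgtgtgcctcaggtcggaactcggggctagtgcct
Cebpb: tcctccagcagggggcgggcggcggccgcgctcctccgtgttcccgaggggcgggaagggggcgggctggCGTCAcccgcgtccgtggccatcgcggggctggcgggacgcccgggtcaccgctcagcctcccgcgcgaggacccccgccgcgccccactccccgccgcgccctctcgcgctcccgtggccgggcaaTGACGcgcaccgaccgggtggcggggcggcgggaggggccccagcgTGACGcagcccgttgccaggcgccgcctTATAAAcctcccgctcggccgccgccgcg

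The Foxa1 window held 1 FOXA match, at -141 from the RefSeq start on the minus strand of the window. This motif was found in 3.65% of all 32851 promoter windows. The whole window lies inside the Foxa1 gene as GENCODE places it (chr12:57540628-57546916, minus strand). The match is thus not upstream of the GENCODE start of Foxa1. The first Foxa2 window held 1 ONECUT match at -213, a motif found in 2.86% of windows, and 1 TGACG at 2 bases into the transcript. Foxa3 had a TATA box at -36, found in 13.6% of windows at any position, and the Foxa1 window had none of the other motifs. Cebpb held TGACG at -180, -53 and -7, where 20.8% of windows hold at least 1, and TATAAA at 22 bases after the annotated start. The base content of these windows also differed, with 62.3% G and C in Foxa1, 54.3% in Foxa2, 69.0% in Foxa3 and 80.7% in Cebpb. The C/EBP motif TTGCNNAA, found in 10.8% of windows, had 0 matches in the 10 windows. A match describes letters in the window and says nothing of binding in these livers.

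Cebpa was the most abundant of the 8 in both groups and Foxa1 the least. In TCS livers the order of the mean levels was Cebpa (72.8 TPM), Cebpb (23.7), Prox1 (22.3), Foxa3 (19.3), Foxa2 (10.7), Onecut1 (10.4), Onecut2 (9.39) and Foxa1 (4.15). There the ranges of Cebpb and Prox1 overlapped, as did those of neighbours among Foxa2, Onecut1 and Onecut2, and these neighbours do not differ beyond their spread. In vehicle livers the order was Cebpa (66.8 TPM), Cebpb (34.9), Foxa3 (23.5), Prox1 (16.5), Onecut2 (9.25), Foxa2 (8.72), Onecut1 (8.58) and Foxa1 (2.67). Overlap between neighbours in vehicle was limited to Onecut2 with Foxa2 and Foxa2 with Onecut1. Prox1 was above Foxa3 in every TCS sample and below it in every vehicle sample.

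**Figure D1:**
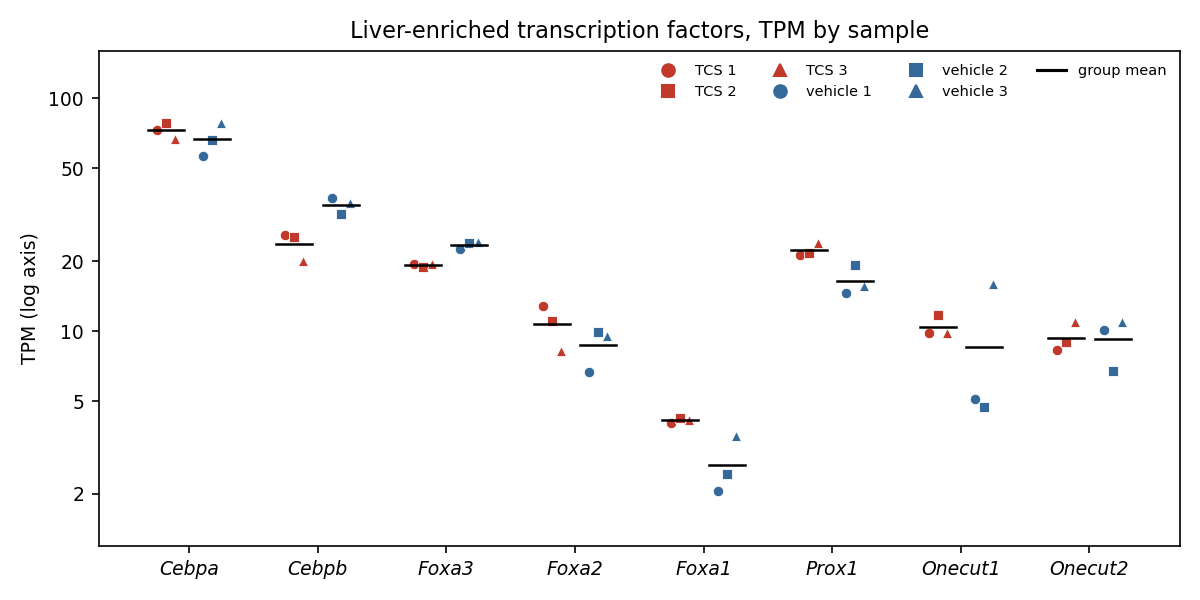
TPM of the 8 factors on a log axis, one point per sample (red TCS, left; blue vehicle, right; shape gives the table's column number) with black bars at group means. Cebpb and Foxa3 points of TCS lie below all vehicle points, those of Foxa1 and Prox1 lie above them, and the vehicle points of Onecut1 span 4.72 to 15.9 TPM.

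The 3 Foxa genes had fold changes of both signs, and 0 of the 3 passed the test across all genes. Foxa3 (ENSMUSG00000040891, GRCm38 chr7:19013284-19023538, minus strand), the most abundant Foxa gene in these livers, was at 19.4, 18.9 and 19.5 TPM in TCS samples and at 22.6, 23.8 and 24.2 TPM in vehicle samples. Every TCS sample was below every vehicle sample, and the values within a group were close together. The mean was 19.3 ± 0.321 TPM in TCS and 23.5 ± 0.833 TPM in vehicle (n = 3 each, SD), a log2 fold change (of TPM + 1, TCS over vehicle) of -0.28 with a standard error of 0.07. Limma's trended moderated test gave an unadjusted p of 0.00511 and a Benjamini-Hochberg adjusted p of 0.108 over the 13325 genes, with a 95% interval of -0.43 to -0.12. The pooled SD of Foxa3 within groups, on the log2 scale, was 0.04, and 1.30% of genes tested had a smaller one, against a median SD of 0.15.

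Foxa1 (ENSMUSG00000035451, chr12:57540628-57546916, minus strand), which acts with Foxa2 in specifying liver from foregut endoderm, had the lowest levels and the opposite direction. It was at 4.04, 4.24 and 4.16 TPM in TCS samples and at 2.05, 2.43 and 3.54 TPM in vehicle samples. The groups did not overlap, and the vehicle samples were the more spread (CV 2.43% in TCS, 29.0% in vehicle). The log2 fold change was 0.51 (SE 0.16, 95% interval 0.12 to 0.89, limma unadjusted p 0.0174, adjusted p 0.148).

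Foxa2 (ENSMUSG00000037025, chr2:148042877-148046969, minus strand), which has a role in lipid and ketone metabolism in the fasted liver and in bile acid homeostasis, gave no separation. It was at 12.8, 11.1 and 8.22 TPM in TCS samples and at 6.71, 9.93 and 9.53 TPM in vehicle samples. TCS sample 3 was below 2 of the 3 vehicle samples. The log2 fold change was 0.26 (SE 0.20, limma adjusted p 0.441), and its 95% interval of -0.21 to 0.74 covers a decrease as well as an increase. Summed over the 3 genes, Foxa transcripts came to 34.1 ± 2.18 TPM in TCS and 34.9 ± 3.14 TPM in vehicle (n = 3 each, SD). Within this sum Foxa3 made up 56.6% ± 4.01 in TCS and 67.6% ± 3.89 in vehicle, and Foxa1 12.2% ± 0.965 in TCS and 7.59% ± 1.66 in vehicle.

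Of the C/EBP genes, Cebpb separated the groups and Cebpa did not. Cebpb (ENSMUSG00000056501, chr2:167688915-167690418, plus strand) was at 25.8, 25.4 and 20.0 TPM in TCS samples and at 37.4, 31.9 and 35.5 TPM in vehicle samples. All TCS samples were below all vehicle samples, with a mean of 23.7 ± 3.24 TPM in TCS and 34.9 ± 2.79 TPM in vehicle (n = 3 each, SD). Cebpb had the lowest p of the 8, with a log2 fold change of -0.54 (SE 0.12, 95% interval -0.83 to -0.26, limma unadjusted p 0.00315, adjusted p 0.0977). Cebpa (ENSMUSG00000034957, chr7:35119293-35121928, plus strand), which maintains gluconeogenic and other metabolic genes in the mature hepatocyte, was at 73.2, 78.4 and 66.7 TPM in TCS samples and at 56.3, 66.0 and 78.2 TPM in vehicle samples. The lowest Cebpa value belonged to vehicle sample 1 and the highest to TCS sample 2, with the rest interleaved. Its log2 fold change was 0.13 (SE 0.13, 95% interval -0.18 to 0.44, limma adjusted p 0.564), the same as the median of all genes tested. The sum of both C/EBP genes was 96.5 ± 8.82 TPM in TCS and 102 ± 10.5 TPM in vehicle, of which Cebpb was 24.5% ± 1.50 in TCS and 34.6% ± 4.68 in vehicle.

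The Onecut genes overlapped between groups. Onecut1 (ENSMUSG00000043013, chr9:74861921-74891781, plus strand), which binds promoters of hepatic glucose and bile acid genes, was at 9.79, 11.7 and 9.82 TPM in TCS samples and at 5.11, 4.72 and 15.9 TPM in vehicle samples. Vehicle sample 3 was above every TCS sample and the other vehicle samples below every TCS sample, so the vehicle CV was 74.0% and the TCS CV 10.5%. The log2 fold change was 0.44 (SE 0.41, 95% interval -0.54 to 1.43, limma adjusted p 0.534). Without vehicle replicate 3 it was 0.95 (SE 0.12, limma adjusted p 0.0685), and without vehicle replicate 2 it was 0.17. The SD of Onecut1 within groups was above that of 95.2% of genes tested. The sample with the most acinar marker RNA in each group, TCS sample 2 and vehicle sample 3, also had the most Onecut1 of its group. The same samples had the most Xist of their groups, at 98.7 and 88.3 TPM. With the Xist level as a covariate, the log2 fold change of Onecut1 was 0.49 (SE 0.39). Acinar RNA and Xist ranked the samples of each group alike, so their parts in these levels cannot be told apart. The part of pancreatic RNA was not tested.

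Onecut2 (ENSMUSG00000045991, chr18:64340020-64400987, plus strand), which overlaps in function with Onecut1 in liver and bile duct development, was at 8.31, 8.97 and 10.9 TPM in TCS samples and at 10.1, 6.75 and 10.9 TPM in vehicle samples. The highest value was shared by TCS sample 3 and vehicle sample 3, and the lowest was vehicle sample 2. Its log2 fold change was 0.04 (SE 0.19, 95% interval -0.41 to 0.48, limma adjusted p 0.917).

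Prox1 (ENSMUSG00000010175, chr1:190118035-190170714, minus strand), a co-repressor of nuclear receptors such as HNF4α and LRH-1 that also marks lymphatic endothelium, was at 21.3, 21.7 and 23.9 TPM in TCS samples and at 14.6, 19.2 and 15.6 TPM in vehicle samples. Each TCS sample was above each vehicle sample. The mean was 22.3 ± 1.40 TPM in TCS and 16.5 ± 2.42 TPM in vehicle (n = 3 each, SD), with a log2 fold change of 0.42 (SE 0.11, 95% interval 0.15 to 0.70, limma unadjusted p 0.00906, adjusted p 0.124). The lymphatic endothelial sums are given above, and the part of these cells in the Prox1 level was not tested.

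Set against all genes, 0 of the 8 factors passed an adjusted p under 0.05 in limma, where 0.173% of genes tested passed. At an unadjusted p under 0.05, Foxa1 and Prox1 were higher in TCS, as were 19.5% of genes tested, and Foxa3 and Cebpb were lower, as were 3.50%. The same 4 genes had no overlap between groups, 2 of 8 higher in TCS against 25.1% of genes tested and 2 of 8 lower against 4.61%. On the deposited scale, the share of the 8 that was higher was thus near that of all genes. The hepatocyte and erythroid marker sums were lower in every TCS sample too, and their part in these differences was not tested. With the Xist level as a covariate, the log2 fold changes were 0.52 for Foxa1, 0.42 for Prox1, -0.28 for Foxa3 and -0.55 for Cebpb. The median log2 fold change was 0.20 over the 8 factors and 0.13 over all genes tested.

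This shift of all genes bears on the smaller fold changes. Relative to it, Foxa1 was at 0.38, Onecut1 at 0.31, Prox1 at 0.29 and Foxa2 at 0.13, while Onecut2 was at -0.09, Foxa3 at -0.41 and Cebpb at -0.68 on the log2 scale. Rescaling TPM by median-of-ratios factors, which brings the median of all genes to -0.00, gave 0.39 for Foxa1, 0.28 for Prox1, -0.42 for Foxa3 and -0.69 for Cebpb, with limma's adjusted p still above 0.05 for each. At an unadjusted p under 0.05 the same 2 genes were higher and the same 2 lower after rescaling, where 8.31% of genes tested were higher and 8.97% lower, so the nearness of the higher share to that of all genes holds on the deposited scale and not after rescaling. Under it Cebpa came to -0.02 and Onecut2 to -0.10, on the other side of 0 from their values as deposited. With limma's array weights, which give less weight to samples farther from their group, 3 of the 8 passed, where 9.31% of genes tested passed. These were Foxa3 (log2 fold change -0.28, adjusted p 0.0378), Cebpb (-0.50, adjusted p 0.0363) and Prox1 (0.45, adjusted p 0.0385).

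**Figure D2:**
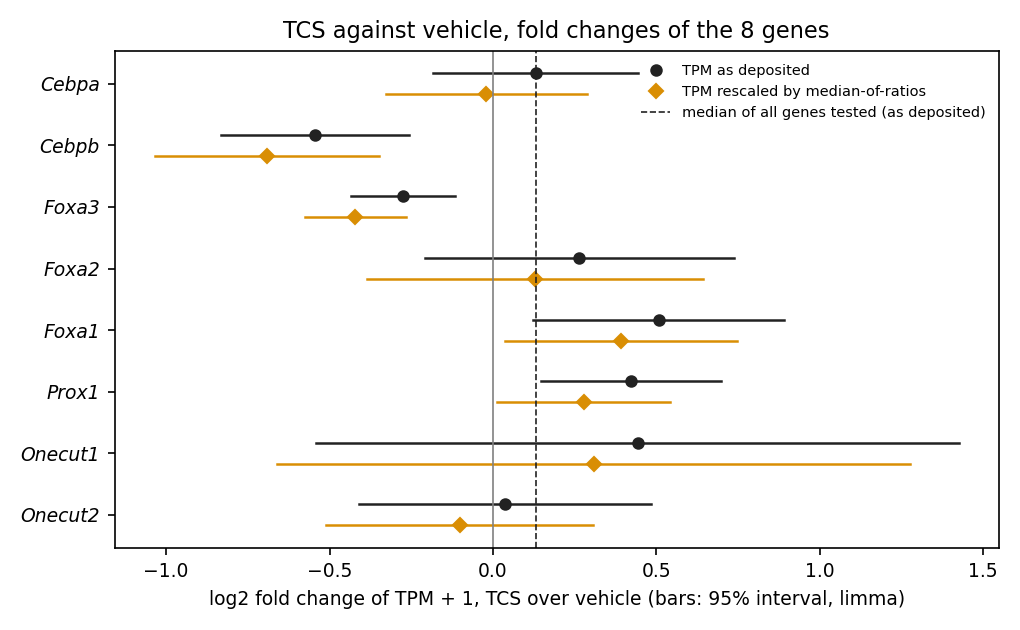
Log2 fold changes of TPM + 1, TCS over vehicle, with limma's 95% intervals, from TPM as deposited (black circles) and after median-of-ratios rescaling (orange diamonds); the dashed line is the median of all genes tested, 0.13. The intervals of Cebpb and Foxa3 lie below 0 and those of Foxa1 and Prox1 above 0 on both scales, and the interval of Onecut1 is the widest, from -0.54 to 1.43.

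Ratios between factors within a sample do not move with the scaling of that sample. Cebpb over Cebpa was 0.352, 0.324 and 0.300 in TCS samples and 0.664, 0.483 and 0.454 in vehicle samples. Each TCS ratio was below each vehicle ratio, and the mean log2 ratio differed by -0.70 (TCS minus vehicle). Foxa1 over Foxa3 was 0.208, 0.224 and 0.213 in TCS samples and 0.0907, 0.102 and 0.146 in vehicle samples. The log2 difference was 0.96 with no overlap. As Foxa1 was higher and Foxa3 lower in every TCS sample, this ratio had to separate. Foxa3 over Foxa2 was 1.52, 1.70 and 2.37 in TCS samples and 3.37, 2.40 and 2.54 in vehicle samples. Here too no TCS ratio reached the vehicle ratios, TCS sample 3 and vehicle sample 2 being the nearest, and the log2 difference was -0.58.

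These 3 ratios each gave p = 0.1 in a two-sided exact permutation test, the smallest p that 3 against 3 samples allow. After adjustment over the 6 ratios it was 0.2. For Foxa1 over Foxa3 this outcome was fixed by the separation of both genes and adds nothing to it. For the other 3 ratios the groups overlapped. The log2 difference was 0.38 for Foxa1 over Foxa2 (exact permutation p = 0.2, adjusted 0.3), -0.47 for Onecut2 over Onecut1 (exact permutation p = 0.4, adjusted 0.48) and -0.07 for Prox1 over Onecut1 (exact permutation p = 1).

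**Figure D3:**
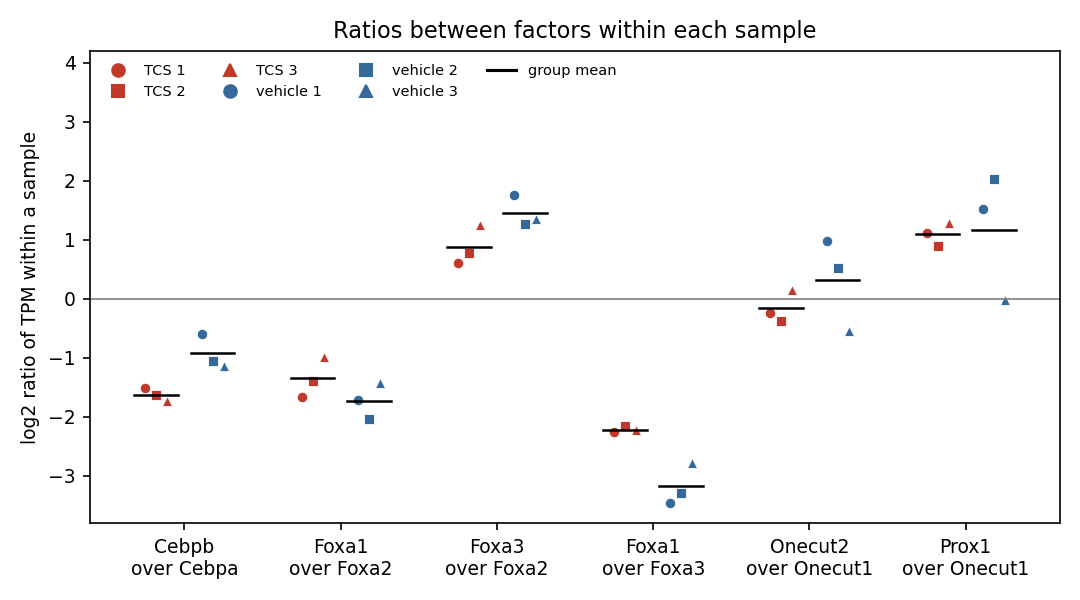
Log2 ratio of TPM between pairs of factors within each sample (red TCS, left; blue vehicle, right; bars at group means). TCS points lie apart from vehicle points for Cebpb over Cebpa (difference of means -0.70), Foxa3 over Foxa2 (-0.58) and Foxa1 over Foxa3 (0.96), and overlap them for the other 3 ratios.

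Several factor genes overlap other genes, and the library kit named in the labels does not mark strand, although the methods describe strand-specific counting. Reads from overlapping genes may then not be told apart. The gene Tmem189 lies antisense across 312 exonic bases of Cebpb, 20.7% of its exons. Tmem189 averaged 7.40 ± 0.576 TPM in TCS and 7.29 ± 0.612 TPM in vehicle (n = 3 each, SD), with a log2 fold change of 0.02 where that of Cebpb was -0.54. Prox1os, antisense to 1.59% of the exons of Prox1, was at 9.78, 7.55 and 7.54 TPM in TCS samples and at 9.13, 8.20 and 7.46 TPM in vehicle samples. Prox1os overlapped between groups where Prox1 did not. Gm45091, antisense to 1.93% of the exons of Cebpa, overlapped between groups as Cebpa did, with a log2 fold change of 0.16 (SE 0.15).

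On the strand of Onecut1, Gm20649 shares 2171 exonic bases, 52.8% of the Onecut1 exons, so how reads were divided between them is uncertain. Gm20649 was at 2.01, 2.79 and 1.36 TPM in TCS samples and at 2.04, 0.634 and 3.39 TPM in vehicle samples, with vehicle sample 3 again the highest. Gm16551, 1786 bases from Onecut1 and chosen after its values were seen, was at 7.60, 7.65 and 8.81 TPM in TCS samples and at 3.90, 1.97 and 5.06 TPM in vehicle samples. It was higher in TCS without overlap, with a log2 fold change of 1.02 (SE 0.26) and a limma adjusted p of 0.113. Near Foxa2, the noncoding RNA 9030622O22Rik, likewise chosen after its values were seen, was at 34.5, 35.3 and 35.6 TPM in TCS samples and at 29.0, 24.6 and 40.0 TPM in vehicle samples. Its groups overlapped, as those of Foxa2 did.

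**Figure D4:**
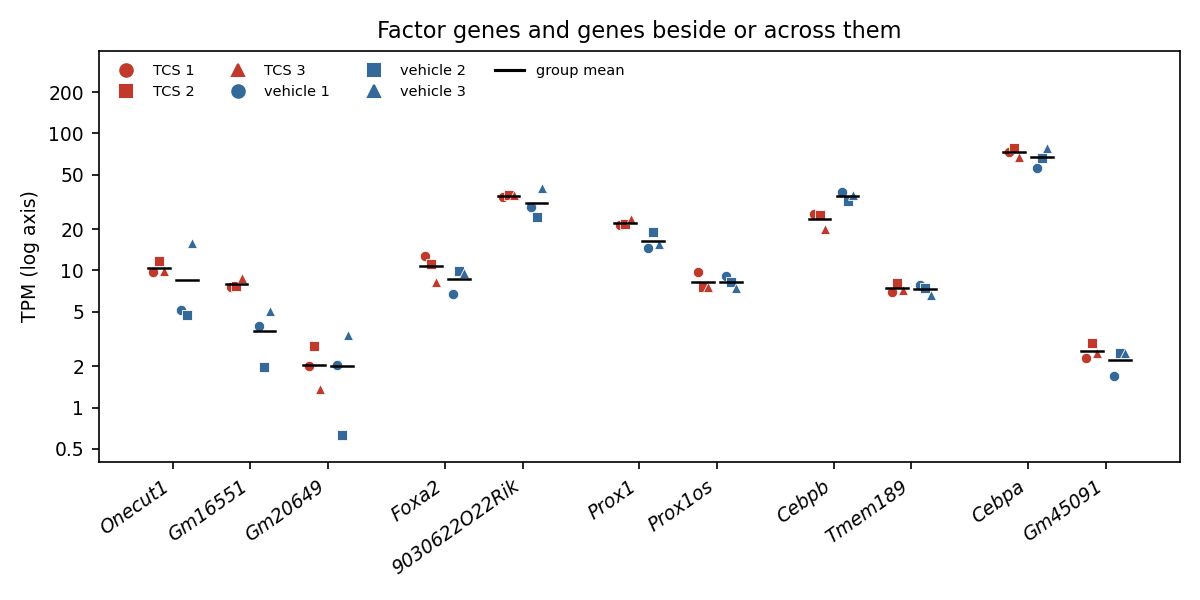
TPM (log axis) of 5 factor genes, each followed by genes that overlap it or lie near it, one point per sample (red TCS, left; blue vehicle, right; bars at group means). Tmem189 and Prox1os show no gap between groups beside Cebpb and Prox1, and Gm16551, at 7.60 to 8.81 TPM in TCS and 1.97 to 5.06 TPM in vehicle, shows one beside Onecut1.

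Relatives of the 8 factors were examined as lists, drawn up with earlier results of these data known, in which 0 genes passed the adjusted threshold. Of 12 other liver-enriched factors, 1 was higher and 0 were lower at an unadjusted p under 0.05. Of all genes tested, 19.5% were higher and 3.50% lower at that p. The median log2 fold change of the 12 was 0.07. The one that was higher was Gata4, a zinc finger factor of early liver development, at 6.44, 7.73 and 7.23 TPM in TCS samples and at 4.78, 5.07 and 5.78 TPM in vehicle samples (log2 fold change 0.39, limma adjusted p 0.125). Creb3l3, a fasting-responsive factor and the most abundant of the list over all 6 samples, averaged 160 ± 5.51 TPM in TCS and 148 ± 35.2 TPM in vehicle and overlapped. Hhex, a homeobox factor of liver budding that was chosen after its values were seen, was at 54.5, 42.1 and 50.7 TPM in TCS samples and at 42.5, 18.3 and 62.1 TPM in vehicle samples. Like Onecut1, it was highest in vehicle sample 3 and lowest in vehicle sample 2.

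Among 15 other forkhead genes tested, 0 were higher and 2 were lower at an unadjusted p under 0.05. The shares over all genes tested were 19.5% higher and 3.50% lower. The median log2 fold change of these forkhead genes was -0.01. Foxo1, the insulin-restrained activator of gluconeogenic genes, was at 6.09, 5.70 and 6.69 TPM in TCS samples and at 11.0, 10.2 and 8.21 TPM in vehicle samples. No TCS value reached the vehicle values, and the log2 fold change was -0.59 (SE 0.12, limma adjusted p 0.0949). Foxo3 had a log2 fold change of -0.26 (limma adjusted p 0.169), also without overlap, and Foxn3, the most abundant over all 6 samples, had -0.03. Of 8 C/EBP relatives and regulators, 0 were higher and 1 was lower at an unadjusted p under 0.05, against the same 19.5% and 3.50%. The lower gene was Cebpd, an acute-phase partner of Cebpb, with a mean of 1.04 ± 0.210 TPM in TCS, 0.523 of the vehicle mean. It had no overlap (log2 fold change -0.55, limma adjusted p 0.119). The ubiquitin ligase gene Cop1, whose product targets C/EBP proteins with Tribbles partners, was the most abundant of these over all 6 samples and had -0.12.

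Of 6 other cut and prospero homeobox genes, 3 could be tested and all 3 separated, 2 of them higher in TCS, as were 25.1% of all genes tested, and 1 lower, as were 4.61%. Cux2, a repressor with female-enriched expression in adult mouse liver, was at 1.52, 2.37 and 6.25 TPM in TCS samples and at 7.22, 11.9 and 12.2 TPM in vehicle samples. Its log2 fold change was -1.50 (SE 0.41, limma adjusted p 0.122). Xist differed between these samples as given above, and its part in Cux2 was not tested. Cux1, the broadly expressed paralog, was at 10.1, 10.0 and 13.0 TPM in TCS samples and at 7.76, 6.78 and 9.17 TPM in vehicle samples (log2 fold change 0.43, limma adjusted p 0.158). Prox2, the paralog of Prox1, had a log2 fold change of 0.36 (limma adjusted p 0.175) with levels of 2.37 ± 0.418 TPM in TCS and 1.61 ± 0.121 in vehicle (n = 3 each, SD).

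Genes that textbook knowledge links to the factors were counted in 3 lists, drawn up with earlier results of these data known. The counts are thus a description. These lists share genes such as Pck1, Tat and Alb, and 0 genes of any list passed the adjusted threshold. In the FOXA list 1 of 12 genes tested was higher and 6 were lower at an unadjusted p under 0.05, and in the C/EBP list 0 of 13 were higher and 5 lower, where 19.5% of all genes tested were higher and 3.50% lower. The medians were -0.31 in both lists. In the Onecut and Prox1 list 2 of 10 were higher and 2 lower, with a median of -0.00. All TCS samples were below all vehicle samples in 7 of the 12 FOXA genes and 6 of the 13 C/EBP genes (4.61% of all genes tested). The hepatocyte marker sum, most of it Alb, was also lower in every TCS sample. Both lists share Alb, Tat and Cps1 with the markers, and the FOXA list shares Apoa1 and Ttr as well.

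Igfbp1, an insulin-repressed FOXA target that encodes a binding protein for insulin-like growth factors, was at 236, 254 and 346 TPM in TCS samples and at 946, 617 and 513 TPM in vehicle samples (log2 fold change -1.28, limma adjusted p 0.0882). Pck1, the gluconeogenic enzyme gene that all 3 lists hold, was at 1220, 1110 and 1500 TPM in TCS samples and at 2110, 2500 and 1910 TPM in vehicle samples (log2 fold change -0.77, limma adjusted p 0.0866). Gys2, liver glycogen synthase and a C/EBPα-dependent gene, was at 74.8, 77.8 and 75.6 TPM in TCS samples and at 112, 167 and 119 TPM in vehicle samples (log2 fold change -0.77, limma adjusted p 0.0881). In each of these genes the highest TCS sample was below the lowest vehicle sample. Tat, tyrosine aminotransferase, had a log2 fold change of -0.89 (limma adjusted p 0.107), and Alb, the albumin gene, averaged 89067 ± 1274 TPM in TCS and 101900 ± 5730 TPM in vehicle. Ttr, a hepatocyte secretory gene long used to study FOXA and ONECUT1 sites and the most abundant of the Onecut and Prox1 list, averaged 5173 ± 321 TPM in TCS and 5477 ± 180 TPM in vehicle and overlapped.

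**Figure D5:**
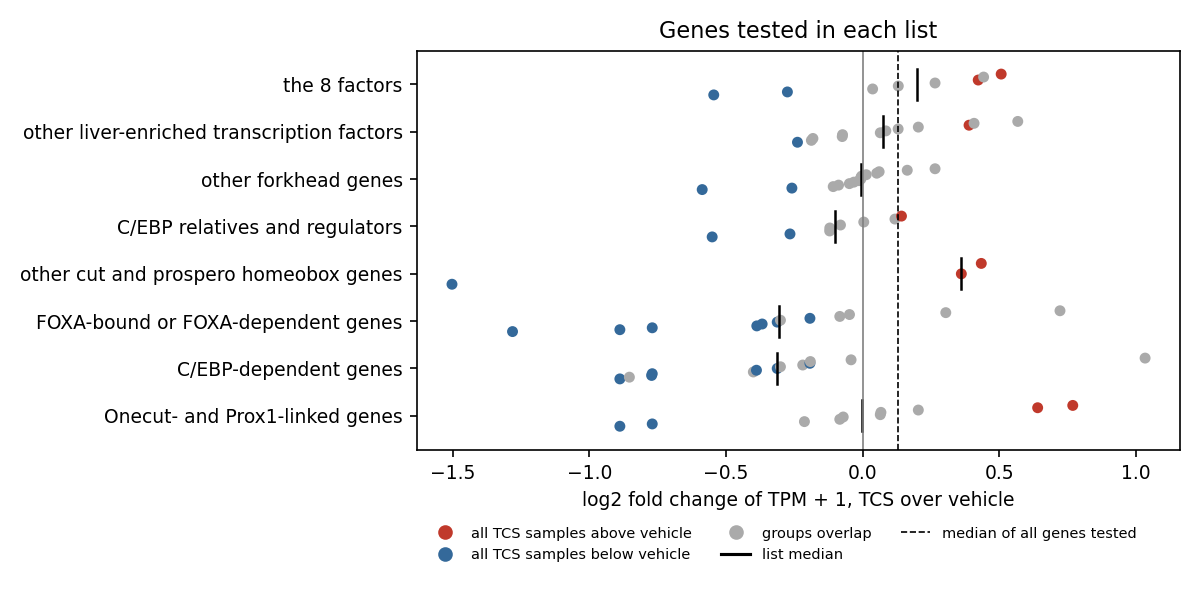
Log2 fold change of TPM + 1, TCS over vehicle, for every gene tested in the 8 factors and 7 related lists, with red where all TCS samples were above all vehicle samples, blue where all were below, and grey where they overlapped; short black bars are list medians and the dashed line the median of all genes tested. The FOXA and C/EBP lists have medians of -0.31 and the 8 factors 0.20, and the lists share some genes.

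The genes whose pattern was most like each factor were sought among 8687 genes with a mean of at least 5 TPM, by Pearson's r of log2(TPM + 1) over the 6 samples. The points share the difference between groups and whatever sets a pool apart, so r is a description. Cebpb was most like Banp (r = 0.983) and Jun (r = 0.971), and Jun, an immediate-early AP-1 gene, was at 4.77, 5.13 and 4.33 TPM in TCS samples and at 7.75, 6.42 and 7.72 TPM in vehicle samples. Foxa3 was most like the noncoding RNA Gm45044 (r = 0.985), at 14.1, 14.4 and 16.2 TPM in TCS samples and at 30.9, 43.8 and 37.5 TPM in vehicle samples, and Ranbp10 (r = 0.980). In both sets the groups stood apart as they did in the factor itself, which a search for the most like pattern favours. Foxa1 was nearest to Mrpl40 and Slc66a2 (r = 0.995 for both), Prox1 to Gprasp1 (r = 0.997) and Tarsl2 (r = 0.996), and Onecut1 to Abhd16a and Taf1a (r = 0.990 for both). Foxa2 was nearest to Snw1 (r = 0.975) and Copz2 (r = 0.967), Cebpa to Ifi27l2b (r = 0.994) and Lilrb4a (r = 0.970), and Onecut2 to the pseudogene Rab11b-ps2 (r = 0.990) and Dpm2 (r = 0.984).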

How the data were processed

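Liver RNA of 3 TCS and 3 vehicle pools was compared. Per the submitters' processing notes, bases were called with bcl2fastq 2.17.1.14 and reads aligned to mm10 (GRCm38) with STAR 2.2.0c, followed by HOMER. The methods describe FPKM over RefSeq exons, whereas the table the authors deposited holds TPM under Ensembl identifiers, a step not given in the sources used here. TPM keeps no read depth, so no counting error is given. A second deposited table with the authors' own fold changes and adjusted p-values was not used. Column names give the group and a number that cannot be tied to single sample labels.

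Genes that reached 1 TPM in 3 or more of 6 samples were tested as log2(TPM + 1) with limma 3.58.1 (R 4.3.3, trended moderated test), with Benjamini-Hochberg adjustment over 13325 genes and a threshold of 0.05. The pseudocount understates fold changes of low genes. This test was first tested on simulated data. Within-sample ratios were compared by exact permutation. The members and gene lists were chosen with earlier results of these data known. Named genes were the 8 members, in each related list up to 3 genes with the smallest unadjusted p under 0.05 and the most abundant, genes overlapping a member, and the 2 genes most like each member; any other gene is marked in the text as picked with its values known. A gene under this rule is not reported here. Coordinates come from GENCODE M21 (GRCm38), which holds 99.5% of the identifiers, and promoters from RefSeq (GRCm38.p6).

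Alternatives were no filter, a 5 TPM filter, a pseudocount of 0.1, median-of-ratios rescaling, quantile normalization, no variance trend, array weights, an Xist covariate, the column number as a block, and each sample left out in turn. A pseudocount of 1 in the ratios was chosen after seeing the data.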

Additional observations from a re-analysis of the deposited data

How the results depend on the processing

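Of 119 fold changes of the 8 factors recomputed under an alternative, 110 kept their direction and their side of the threshold, 3 passed it and 6 changed sign. No filter, the 5 TPM filter, no variance trend and the column-number block leave the fold change itself as it was. Under these only the side of the threshold could change. Array weights took the number of factors past the adjusted threshold to 3, the log2 fold changes being -0.28 for Foxa3, -0.50 for Cebpb and 0.45 for Prox1, and the cause was not tested. The log2 fold change of Cebpa was -0.020 under median-of-ratios rescaling. That of Onecut2 was -0.10 under median-of-ratios rescaling and under quantile normalization, and -0.065 with array weights. Leaving out 1 sample gave log2 fold changes of 0.38 to 0.67 for Foxa1, 0.11 to 0.43 for Foxa2, -0.30 to -0.26 for Foxa3, 0.02 to 0.25 for Cebpa, -0.61 to -0.43 for Cebpb, 0.17 to 0.95 for Onecut1, -0.15 to 0.16 for Onecut2 and 0.35 to 0.53 for Prox1, and the ratio of Prox1 over Onecut1 differed by -0.67 to 0.36. Foxa1 has no value under the 5 TPM filter, which it did not pass. Over all genes, array weights called 1240 against 23, no filter called 0 of 28916 with 3837 at an unadjusted p under 0.05, and the filter at 5 TPM called 59 of 8774. Leaving out 1 sample gave 0 (without TCS replicate 3) to 29 calls (without vehicle replicate 2). Rescaling also moved the split at an unadjusted p under 0.05 to 1107 higher and 1195 lower, against 2597 and 466 as deposited.

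The column numbers pair no samples by the labels, and same-numbered samples did not deviate together (r = -0.01, -0.25 and -0.07 across genes). With the number as a block 0 factors passed, as without it, the adjusted p of Cebpb being 0.135 in limma. In all 13325 genes the block gave 0 calls, with 3070 at an unadjusted p under 0.05. Read depth is unknown, so what it limits cannot be stated.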
